A study of Monodelphis domestica with 25 samples.

Results

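Untreated whole blood of Monodelphis domestica, the gray short-tailed opossum, from the LSD strain was compared between fresh samples and samples of the same identifiers kept in culture for 72 h. The comparison was chosen by label and holds 6 of the 25 libraries of the series, 3 at 0 h and 3 at 72 h, from the untreated time course of 15 libraries. The rest of the time course was sampled at 12, 24 and 48 h, and a separate experiment of 10 libraries held cultures of other identifiers with PFOA or GenX, which are fluorinated industrial chemicals, and controls that per the labels received the solvent DMSO. Each of the identifiers A0036, A0039 and A3538 has 1 library at 0 h and 1 at 72 h, all labelled untreated. The labels do not say that an identifier is an animal, so the p-values measure a spread between libraries that may be technical. In the tests of single transcripts, that spread was estimated over all 15 libraries of the time course, not over the 6 alone. Per the labels' protocols, blood was diluted in culture medium with glutamine, penicillin and streptomycin and kept in well plates in a CO2 incubator. The time course used a weaker and a stronger dilution, which the labels do not tie to libraries, so the part of dilution in the results was not tested.

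Whole blood mixes red cells, platelets and several kinds of white cells. Immature red cells still carry RNA, much of it for haemoglobin, and granulocytes, the short-lived white cells of the innate defence, live for a much shorter time than most lymphocytes. A cultured blood sample can therefore change both in which cells are alive and in what each cell transcribes. In bulk RNA, fewer cells of a type and less RNA per cell cannot be told apart. The files name almost all transcripts by Ensembl identifier and do not pair these with gene names, so cell type markers could not be looked up and the labelled tissue could not be checked against them.

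The 6 libraries held between 51349217 and 268367790 counts. Within a time, the log2 CPM values of libraries correlated across 15524 transcripts with Pearson's r of 0.948 to 0.976 at 0 h and 0.942 to 0.964 at 72 h, against 0.797 to 0.864 between the times. CPM is the usual depth-normalized count, here relative to a library total scaled by TMM factors, which set the bulk of transcripts level between libraries. A transcript's CPM can therefore exceed its plain share of the library. A pair of libraries stood apart: the 0 h library of A0039, whose counts were far less concentrated in a few transcripts than those of the other fresh samples, and the 72 h library of A0039, whose r was 0.797 to 0.799 with the 0 h libraries, against 0.839 to 0.864 for the other 72 h libraries.

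Fresh blood of A0036 and A3538 was dominated by a handful of transcripts, and no 72 h library was. The 10 most abundant transcripts of each library held 60.6% of the counts in A0036, 22.6% in A0039 and 61.8% in A3538 at 0 h. In the 72 h libraries, their own 10 most abundant held 14.9%, 17.5% and 15.5%. The change was -45.7, -5.11 and -46.3 percentage points in A0036, A0039 and A3538, and the 0 h and 72 h values did not overlap. The number of transcripts that together made up 50% of a library went from 2, 234 and 2 to 473, 333 and 472. The exact permutation test over libraries (two-sided, n = 3 per time) gave p = 0.1, below which groups of 3 cannot go, and 0.114 once adjusted over the 8 measures of composition. The mean change was -32.4 percentage points, and -46.01 without A0039.

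**Figure D1:**
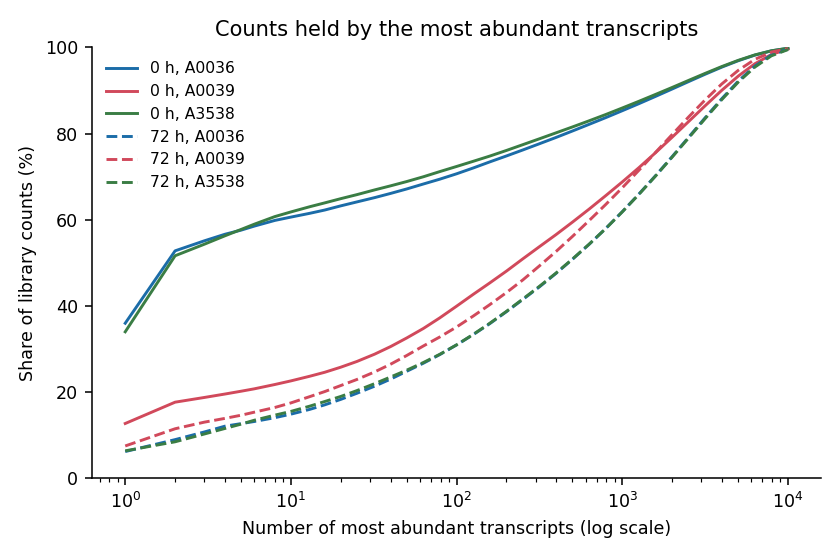
Share of library counts in percent (vertical axis) held by the given number of most abundant transcripts (horizontal axis, log scale), with solid lines for 0 h and dashed lines for 72 h libraries. The solid lines of A0036 and A3538 start at 35.98% and 33.99% and reach 60.6% and 61.8% at 10 transcripts, while the 0 h line of A0039 reaches 22.6% and the 72 h lines 14.9% to 17.5%.

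More kinds of transcript were seen at 72 h. With every library thinned to 51349217 counts, the 0 h libraries of A0036, A0039 and A3538 held 15299, 15219 and 14961 transcripts with at least 1 count. The 72 h libraries held 16771, 17062 and 17056, more in every identifier. Without thinning the means were 15530 ± 599 and 17260 ± 259.5 (SD, n = 3). The number with at least 1 CPM on unscaled library totals did not separate the times, with 10733, 11506 and 10689 at 0 h and 11394, 10904 and 11806 at 72 h (exact permutation p = 0.3). With a minimum of 10 counts at equal totals, the 0 h libraries held 12662, 13301 and 12585 transcripts and the 72 h libraries 13681, 13546 and 14281, again with no overlap. The gain was smallest in A0039, at 245 against 1019 and 1696. Equal totals are not equal depth for the less abundant transcripts. The 10 most abundant took 60.6% and 61.8% of the 0 h counts of A0036 and A3538, but 22.6% in A0039 and 14.9% to 17.5% at 72 h. The part of this in the gains was not tested.

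By 72 h, over 50% of the tested transcripts had changed. The identifier-paired fit called 8068 of 15524 transcripts (52%) at an adjusted p under 0.05, by the quasi-likelihood test of edgeR, adjusted after Benjamini and Hochberg. Of these, 4057 were higher (26.1%) and 4011 lower (25.8%) at 72 h. This balance is relative to the scaling, which levels the bulk of transcripts, and it was 4273 higher and 3867 lower with RLE factors and 3803 and 4237 with TMMwsp factors. In a test for changes beyond 2-fold, 3548 transcripts passed (22.9%), 1655 of them higher (10.7%) and 1893 lower (12.2%). Without the 0 and 72 h libraries of A0039, 7621 were called, and 3030 passed beyond 2-fold with 1214 higher and 1816 lower. In a fit of the 6 libraries alone, the counts were 3577 of 14359 tested (1776 higher) and 1477 (646 higher). This fit leaves 2 residual degrees of freedom in place of 8 and takes no spread from 12, 24 and 48 h. The median SD of log2 CPM was 0.27, 0.27 and 0.30 at those times, against 0.41 at 0 h and 0.47 at 72 h. The part of each in the lower counts was not tested.

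Among calls, the median log2 fold change was 1.52 for higher and -1.70 for lower transcripts, against 0.03 over all tested. Of the higher ones, 352 were without a count at 0 h in all 3 libraries, and 44 of the lower ones were likewise unseen at 72 h. Their fitted fold changes are not bounded by the data, and they passed the filter on low counts only through other times. With the unseen ones set to 3 counts per library in the group without counts, the median changes were 1.44 and -1.69. Changes of at least 6 log2 units were then found for 125 higher and 149 lower transcripts, of which 112 and 146 had a count at both times. At the other end, 2154 calls were smaller than 2-fold, 1213 higher and 941 lower.

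**Figure D2:**
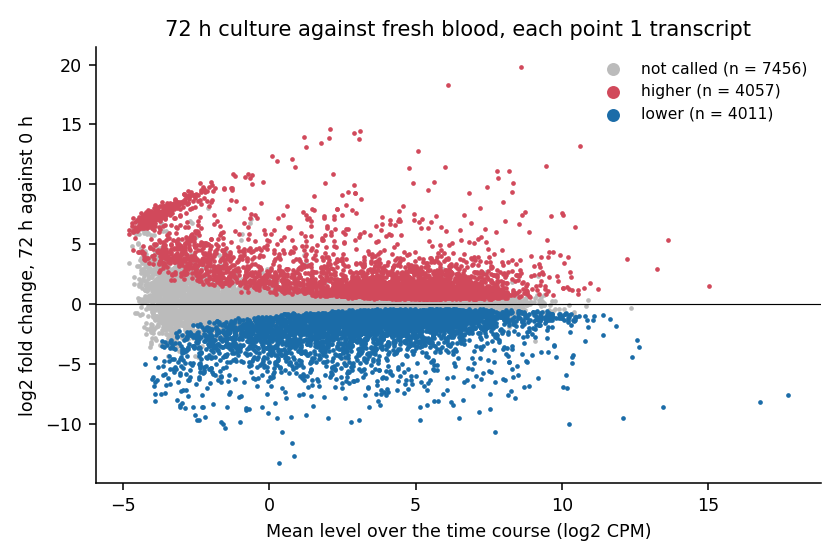
Log2 fold change of 72 h against 0 h (vertical axis) against the mean level over the time course in log2 CPM (horizontal axis), 1 point per tested transcript. The 4057 higher and 4011 lower transcripts lie at every level. The streak of higher points at the left edge holds transcripts with few counts, where a fold fitted against 0 counts is not bounded by the data, and the lower points at the far right are the dominant transcripts of fresh blood.

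Most called transcripts kept the times apart in every library, which the call itself favours. Of the higher ones, 3697 had all 72 h values above all 0 h values, and 3553 of the lower ones had all below, against 8236 of all tested transcripts (53.1%) that did not overlap in either direction. All 3 identifiers moved in the same direction for 7795 calls (96.6%), compared with 29.5% of the transcripts that were not called. Of the 7456 that were not called, 3285 had a 95% interval of the fold change that lay within 2-fold, and for 4171 the interval reached past 2-fold, so a change of that size is not excluded for them.

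The balance of rises and falls differed by level. Transcripts were divided into 5 bins of nearly equal size by mean CPM over all 15 libraries. In the lowest, at 0.0212 to 0.525 CPM, 37.8% were called, 797 higher and 378 lower. The second bin, at 0.526 to 5.14 CPM, had the opposite balance, with 553 higher and 1042 lower (51.4% called). The middle bin had 771 and 911 (54.2%), the one above it 962 and 778 (56%), and the most abundant, above 48.9 CPM, 974 and 902 (60.4%). The median standard error went from 1.07 log2 units in the lowest bin to 0.23 in the highest. The median size of the fold change over all transcripts of a bin was 2.00, 1.10, 0.75, 0.66 and 0.75 log2 units from the lowest to the highest bin. Sizes in the low bins thus stand beside the largest standard errors. The 352 higher calls without a count at 0 h had a median level of 0.186 CPM at 72 h. The 44 lower calls without a count at 72 h had 0.289 CPM at 0 h. Both kinds passed the filter on low counts only through other times. The bins were also set by means that include the 0 and 72 h values, so the balance by level is a description.

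The most abundant transcripts of fresh blood were largely other ones than those of cultured blood. Counts here are not corrected for transcript length, so an order by CPM ranks counts and not molecules. Only 3 of the 10 most abundant transcripts of fresh blood were among the 10 most abundant at 72 h, as were 38 of the 100 and 586 of the 1000 in the larger sets. Of the 100 most abundant at 0 h, 85 were called lower, 6 higher and 9 not called, and of the 100 most abundant at 72 h, 62 were called higher and 24 lower. Their levels ranked them, so these directions are a description. The median log2 fold change of the 0 h set of 10 was -4.02 and that of the 72 h set 2.23.

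Of the 10 leading transcripts of fresh blood, 8 were called lower, and the fourth was called higher. The second went from 322100, 42730 and 354900 CPM in A0036, A0039 and A3538 to 536, 53.4 and 7094 CPM (log2 fold change -8.16, SE 0.969, adjusted p = 3.55e-05). The third went from 44340, 5575 and 53640 CPM to 54.6, 12.1 and 371 CPM (-8.62, SE 0.694). The eighth dropped to 8.86, 2.05 and 53.6 CPM and from place 8 to place 5394. In all of these A0039 was lowest and A3538 highest at 72 h, in the same order as for the leading transcript below. The sixth, seventh and ninth kept a different order, with A0039 the highest at 72 h (609, 1900 and 2496 CPM). The tenth was not called, at a mean of 6866 CPM ± 2198 (SD, n = 3) at 0 h and 5441 ± 2543 at 72 h (log2 fold change -0.37, adjusted p = 0.282).

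The leading transcripts of 72 h blood came from far apart in fresh blood. The second at 72 h had been at place 27 and rose from 2660, 2518 and 2114 CPM to 20220, 37110 and 9131 CPM (log2 fold change 2.94, SE 0.384, adjusted p = 7.03e-05). The fourth had been at place 578 and rose from 286, 239 and 114 CPM to 9911, 5067 and 12730 CPM (5.31, SE 0.507, adjusted p = 8.18e-06). The tenth had been at place 12624, with 0.0571, 0.269 and 0.781 CPM, and reached 3597, 4920 and 1639 CPM (13.2, SE 1.17, adjusted p = 4.74e-06). None of these groups of values overlapped between the times.

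Identifiers are printed here for 2 transcripts that rose and 2 that fell: in each direction, the largest fold change among those above 100 CPM in the higher group, and the largest difference in CPM. ENSMODT00000008242 was unseen in fresh blood, with 0 counts in each of the 0 h libraries. At 72 h it was at 1090, 873 and 446 CPM in A0036, A0039 and A3538. That is at least 17120-fold above the mean level of 3 counts per library at 0 h, and the test gave an adjusted p of 3.23e-07. The transcript was on early, at 111 to 238 CPM in the 12 h libraries, and stayed between 199 and 781 CPM at 24 and 48 h. The controls of the treatment experiment, whose table was normalized separately, held 0.602 and 0.999 CPM after 12 h and 0 and 0.190 CPM after 24 h. Those 12 h controls held 8902853 and 11685427 counts in all. The experiments differ in identifiers, depth and DMSO, and the part of each in this gap was not tested.

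ENSMODT00000009593 held the largest share of every 72 h library. It went from 1.53%, 0.802% and 1.47% of the counts in A0036, A0039 and A3538 to 6.20%, 7.498% and 6.37%. On the CPM scale, it rose from 29370, 6926 and 29570 to 45370, 69760 and 44990, a log2 fold change of 1.52 (SE 0.518, adjusted p = 0.0263). The 0 h value of A0039 was the lowest and its 72 h value the highest, and the change within A0039 was 3.33 log2 units against 0.63 and 0.61 in the other identifiers. Its call ended without either library of A0039 (adjusted p = 0.127 without the 0 h and 0.0952 without the 72 h library), without both (0.227, log2 fold change 0.62), without pairing (0.0718) and in the 6 libraries alone (0.339).

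ENSMODT00000022592 fell furthest among transcripts above 100 CPM. From 337, 625 and 237 CPM in fresh blood of A0036, A0039 and A3538 it went to 0.274, 0.0696 and 0.487 CPM, where 30, 8 and 56 counts were left. The log2 fold change was -10.7 (SE 1.29, adjusted p = 3.77e-05). Most of the fall came late: the mean was 399 CPM in fresh blood, 290.4 CPM after 12 h, 303 CPM after 24 h, 60.5 CPM after 48 h and 0.277 CPM after 72 h. The treatment experiment's controls, normalized separately, held 1892 to 4079 CPM.

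ENSMODT00000014407, the most abundant transcript of fresh blood, showed the largest fall in CPM. Its share of the counts went from 35.98% to 0.203% in A0036, from 12.7% to 0.0381% in A0039 and from 33.99% to 2.097% in A3538. The log2 fold change was -7.62 (SE 0.851, adjusted p = 2.34e-05). Within identifiers the log2 changes were -8.86, -8.28 and -5.53, so A3538 retained the most at 72 h. It had also retained the most at 48 h, at 27480 CPM against 4118 in A0036 and 502 in A0039. The treatment experiment's controls, normalized separately, held 4411 to 5834 CPM after 12 and 24 h. The time course libraries of those times held 12760 to 798000 CPM.

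**Figure D3:**
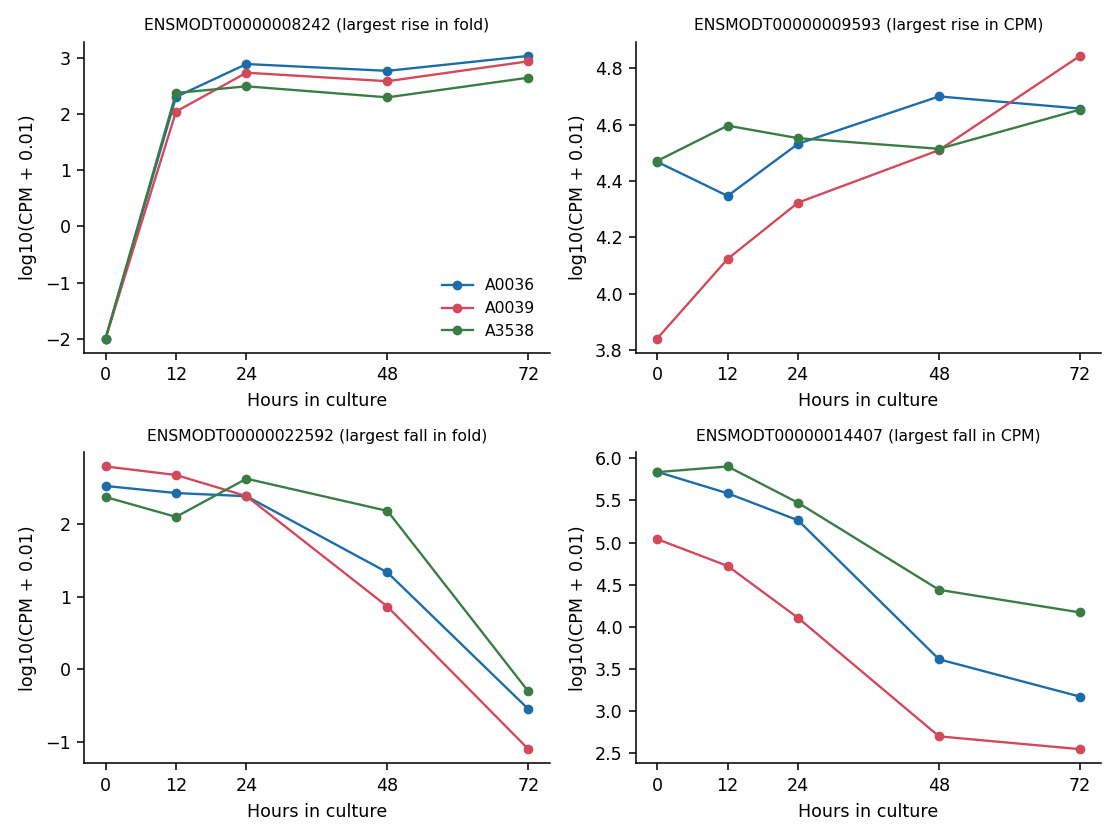
Level of the 4 transcripts printed by identifier, as log10(CPM + 0.01), against hours in culture, with 1 line per identifier (A0036, A0039, A3538) and a separate vertical scale in each panel. ENSMODT00000008242 goes from no count at 0 h to 111 CPM or more at 12 h, while ENSMODT00000022592 is at 243 to 424 CPM at 24 h and below 0.5 CPM at 72 h.

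Few transcripts went from no count to at least 1 CPM in every library. Without the demand for 1 CPM, 352 of those called higher had no count at 0 h, and 44 of those called lower had none at 72 h. Transcripts without a count at 0 h and with at least 1 CPM in every 72 h library numbered 12, with a median of 15.9 CPM at 72 h and a maximum of 803. Of these, 4 were at 1 CPM or more in every 12 h library and 6 in every 48 h library. In the treatment experiment's 12 and 24 h controls, 0 of the 12 were at 1 CPM or more in all 4 libraries, which held 4487453 to 11685427 counts and so resolve low levels poorly. The reverse, no count at 72 h after at least 1 CPM in every 0 h library, was seen for 3 transcripts, with means of 1.62 to 6.46 CPM at 0 h. The difference between 12 and 3 depended on the demand for no count. With at most 3 counts allowed in each library of the lower time, the numbers were 17 and 11. All 12 and all 3 passed the test, as their selection all but required.

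The change was spread over the whole period. Relative to 0 h, the transcripts called higher at 72 h had median log2 changes of 0.42, 0.62, 1.05 and 1.52 after 12, 24, 48 and 72 h. Those called lower had medians of -0.34, -0.50, -0.91 and -1.70. These comparisons share their 0 h libraries, and the calls were made on the 0 and 72 h libraries. The last step, from 48 to 72 h, had a median of 0.46 in the higher and -0.64 in the lower transcripts. Of the higher ones, 3176 (78.3%) peaked at 72 h, and 3341 of the lower ones (83.3%) were at their lowest there, against 33.1% and 33.4% of all tested transcripts. The 72 h values also decided the call, so these shares are a description. The lowest mean lay at 12 h for 779 of the higher transcripts (19.2%, against 14.8% of all tested), and the highest mean for 878 of the lower ones (21.9%, against 16.3%). The call left 0 higher transcripts with their lowest mean at 72 h and 0 lower ones with their highest there. Of all tested transcripts, 33.4% and 33.1% had these there. Shares at the other times are raised by this selection, so the 12 h shares show no excess.

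**Figure D4:**
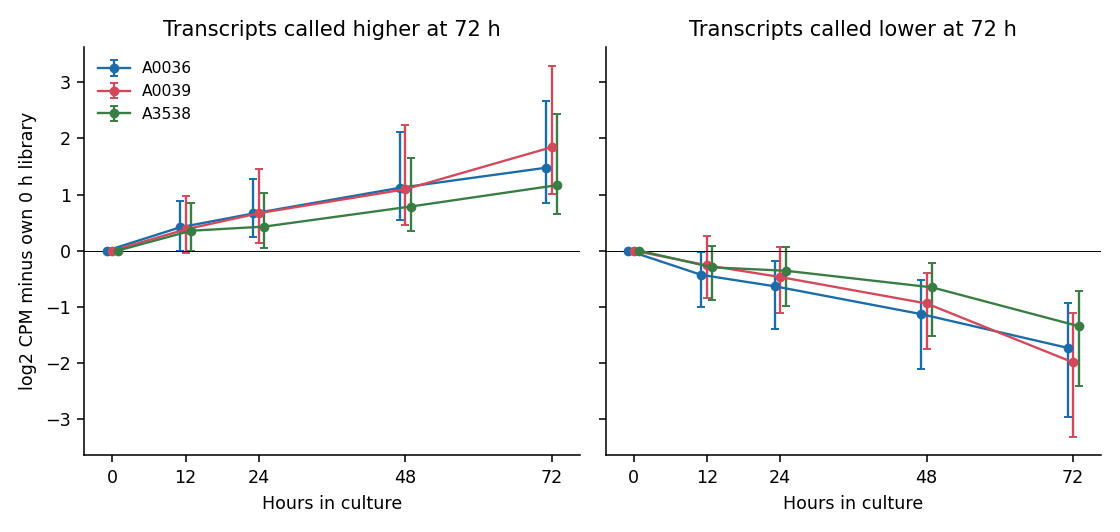
Median log2 CPM difference from the same identifier's own 0 h library (vertical axis) against hours in culture, for the 4057 transcripts called higher (left) and the 4011 called lower (right) at 72 h. Bars span the interquartile range over transcripts. At 72 h the medians of A0039 (1.85 and -2.00) are the furthest from 0 and those of A3538 (1.17 and -1.35) the nearest.

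The 12 and 48 h libraries gave a contrast of the same transcripts that uses no 0 or 72 h value directly, although the filter, the scaling and the spread came from all 15 libraries. From 12 to 48 h, 83.3% of the transcripts called higher at 72 h had a positive fold change (median 0.52) and 87.7% of those called lower a negative fold change (median -0.62). Over all tested transcripts 49.3% were positive and the median was -0.01. The 12 to 48 h comparison itself called 2864 transcripts (18.4%), 1572 higher (10.1%) and 1292 lower (8.32%). Called higher in both comparisons were 1160 transcripts, 28.6% of those higher from 0 to 72 h and 73.8% of those higher from 12 to 48 h. Called lower in both were 1068, or 26.6% and 82.7%. Opposite calls were fewer, with 40 transcripts higher from 12 to 48 h and lower from 0 to 72 h, and 39 the reverse. In a fit of the 12 and 48 h libraries alone, added after seeing the data, 82.8% of the 3686 higher transcripts measured there were positive and 87.8% of the 3912 lower ones negative, against 48.1% positive over 14367. Without the 48 h library of A0036, the 12 to 48 h comparison called 1313, and without the 12 h library of A0036 or A0039 or the 48 h library of A0039 it called 1503, 1382 and 1497.

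Control cultures of the treatment experiment leaned the same way over a shorter span. Of the transcripts called higher at 72 h, 3172 could be measured there, and 60.5% were higher at 24 h than at 12 h (median log2 difference 0.15). Of those called lower, 3358 were measured and 63% were lower (median -0.24). Over all 11866 measured transcripts 50.1% were higher. Within the time course, the 12 to 24 h step was positive for 72.1% of the higher and negative for 73.9% of the lower transcripts. The treatment controls were 2 libraries per time. At 12 h these were A9394R1 and A9394R2, with 8902853 and 11685427 counts. At 24 h they were A9394R2 and A9394R3, with 4487453 and 5304715 counts. The part of depth and identifier in the shares was not tested, and the shares are a description.

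The identifiers differed in how far they moved. Over all tested transcripts, the median size of the log2 change from 0 to 72 h was 0.97 in A0036, 1.27 in A0039 and 0.80 in A3538. A0039 had the largest of the 3 changes for 8057 transcripts (51.9%) and A3538 the smallest for 6999 (45.1%). Among transcripts beyond 2-fold, the medians were 2.83, 3.31 and 2.47 for the higher and -2.87, -3.22 and -2.35 for the lower. Each identifier has 1 library per time, so the difference between identifiers could not be tested. The deviations of its 0 and 72 h libraries from the means of their times correlated with Pearson's r of -0.06, 0.0002 and 0.07 over transcripts for A0036, A0039 and A3538, while those of successive times correlated at 0.16 to 0.50. The spread between libraries was lowest in the middle of the time course: the median SD of log2 CPM was 0.41, 0.27, 0.27, 0.30 and 0.47 after 0, 12, 24, 48 and 72 h.

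A few features carry a name in place of an identifier, and 9 of them could be tested, several named after imprinted genes, which are expressed from only the maternal or only the paternal copy. Of the 9, 2 were called, against 52% of all tested transcripts. Apart from Phlda2_trans, they lay in the 2 lowest bins of mean CPM, where 37.8% and 51.4% were called. Tnsf1 fell from 4.98, 3.03 and 2.89 CPM in A0036, A0039 and A3538 to 1.10, 0.757 and 1.32 CPM (log2 fold change -1.80, SE 0.418, adjusted p = 0.00347). Fsnt3 rose from 1.29, 0.807 and 0.988 CPM to 1.84, 3.65 and 1.78 CPM (1.27, SE 0.399, adjusted p = 0.0181). Neither overlapped between the times. The Fsnt3 call ended when a library was left out: that of A0039 at 0 h (adjusted p = 0.0718), of A3538 at 0 h (0.0545), of A0039 at 72 h (0.105, log2 fold change 0.64) or both of A0039 (0.124). It also ended in the 6 libraries alone (0.157).

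Fsnt1 was just outside the threshold. Its level was 2.56, 1.66 and 1.49 CPM in fresh blood and 0.922, 0.966 and 0.739 CPM after 72 h (log2 fold change -1.09, SE 0.436, adjusted p = 0.0508), with no overlap between the times. It passed under 6 alternatives, among them DESeq2 (0.0347) and the fit without pairing (0.0458). Cdkn1c_trans, named after an inhibitor of the cell cycle, went from 1.22, 1.92 and 0.459 CPM to 0.0913, 0.452 and 0.104 CPM. Its log2 fold change of -2.75 (95% interval -5.35 to -0.16) had an adjusted p of 0.0705, which became 0.0218 in DESeq2 and 0.0464 in the 6 libraries alone.

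Phlda2_trans, named after an imprinted gene that restrains growth of the placenta, moved in different directions. It went from 13.2 to 7.27 CPM in A0036 and from 9.05 to 6.96 CPM in A3538, but from 14.1 to 26.5 CPM in A0039 (log2 fold change 0.30, SE 0.755, adjusted p = 0.76). Without the 72 h library of A0039 its log2 fold change was -1.41 (adjusted p = 0.0802). Peg10_trans, named after an imprinted gene of retrotransposon origin, went from no count to 1.32 CPM in A0039, against 0.143 to 0.0913 CPM in A0036 and 0.138 to 0.348 CPM in A3538. Its log2 fold change was 2.65 (adjusted p = 0.0824), and it passed under 4 alternatives, DESeq2 among them (0.0132). Without the 72 h library of A0039 it was 0.71 (adjusted p = 0.552), and without both libraries of A0039 0.29 (0.785). H19_trans, named after an imprinted noncoding RNA, spanned 0.370 to 0.597 CPM in fresh blood and 0.219 to 0.661 CPM after 72 h (log2 fold change -0.46, adjusted p = 0.407). Igf2_trans, named after a fetal growth factor, had at most 46 counts in any of the 6 libraries. Ins2_trans, named after insulin, had 0 counts in all 6, where a floor of 3 counts allows up to 0.0214 to 0.0689 CPM, depending on the library.

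Rsx, the RNA that coats the inactive X chromosome of female marsupials, was close to the limit of detection. It had 0, 14 and 0 counts at 0 h and 34, 56 and 32 counts at 72 h in A0036, A0039 and A3538. In CPM this was 0, 0.235 and 0 against 0.310, 0.487 and 0.278, higher in every identifier. The test gave a log2 fold change of 2.41 (SE 1.47) and an adjusted p of 0.186. It passed with A0039 left out at 0 h (adjusted p = 0.0113) or at both times (0.0154), where both remaining 0 h libraries had no count.

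**Figure D5:**
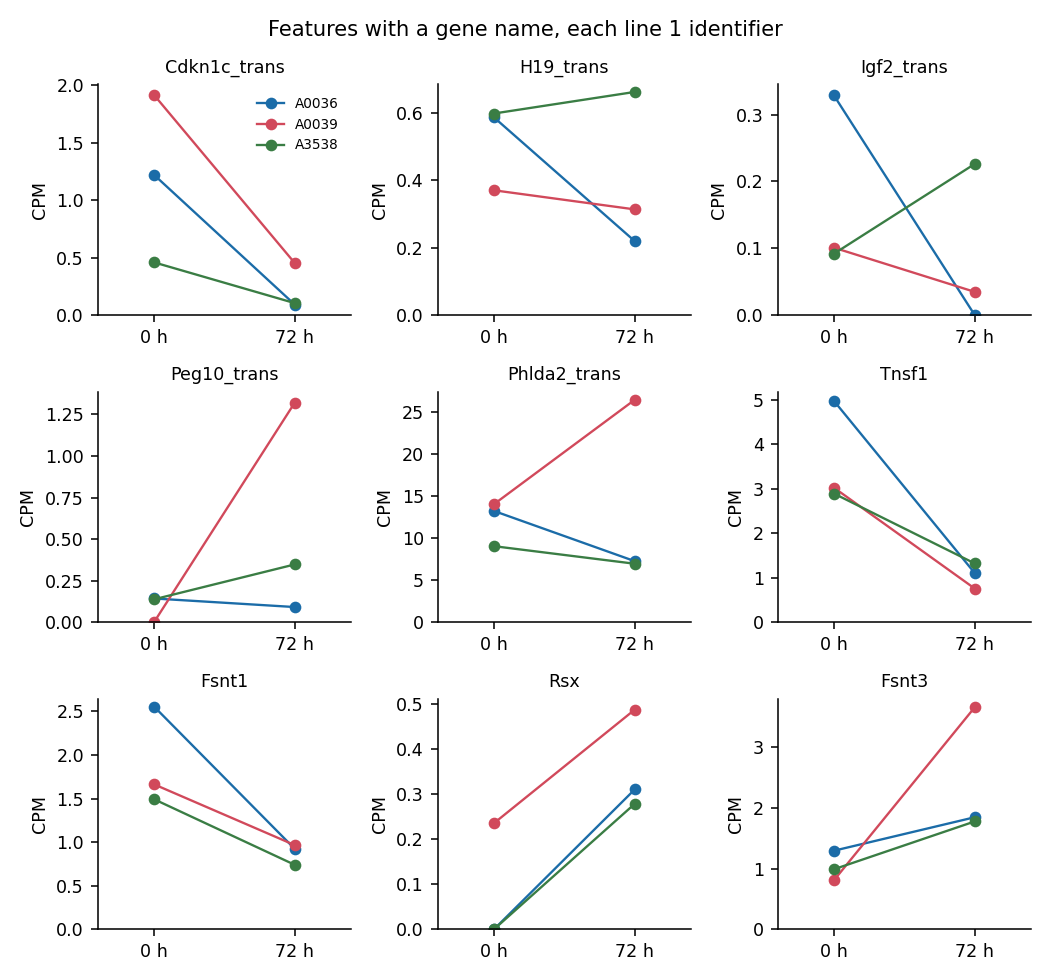
Level in CPM at 0 h and 72 h of the 9 tested features that carry a name, with 1 line per identifier and a separate vertical scale from 0 in each panel. Tnsf1, Fsnt1 and Cdkn1c_trans decline in all 3 identifiers, Fsnt3 and Rsx climb in all 3, and the lines of Phlda2_trans, Peg10_trans, H19_trans and Igf2_trans do not all move the same way.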

How the data were processed

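Poly(A) RNA was sequenced from strand-keeping libraries, per the labels' protocols. The authors deposited raw read counts per transcript, as whole numbers that are not normalized. The submitters' processing notes name TopHat2 2.1.1, Bowtie2, Trimmomatic 0.36, FastQC 11.5, bedtools 2.30.0, R 4.1.2 and edgeR, with no settings. Not given in the sources used here are genome build, annotation and strand use in counting. Counts of overlapping transcripts and of near-identical copies are therefore uncertain. Of 22063 features, 22049 carried an Ensembl identifier, none of which matched the reference gene table (0 matches), and 4 upper-case copies with identical counts were removed. Among values of 1 to 12 counts, 71% were even, so counts cannot be read as independent molecules. Floors of 3 counts account for counting error alone.

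Differences were tested with the quasi-likelihood method of edgeR 4.0.16 in R 4.3.3 on all 15 time course libraries with time and identifier as terms, TMM normalization, filterByExpr (minimum count 10) and Benjamini-Hochberg adjustment over 15524 transcripts. The fit was paired because the comparison is defined by identifier. The pairing check is in the closing section. Changes beyond 2-fold were tested with glmTreat. Libraries within a time differed by at least 261 in chi-square per degree of freedom, so none was the same library counted again. Separate preparations of the same blood are not excluded by this. The treatment experiment's controls were normalized on their own. Cell type marker lists were not used, because no identifier could be named. The script was tested on simulated data. Alternatives were DESeq2 1.42.0, other normalizations and filters, equal depth, no pairing and leaving out libraries. Printed identifiers were chosen by the rule given with them, among called transcripts whose times did not overlap, and every named feature was included. The members and lists were chosen with earlier results of these data known.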

Additional observations from a re-analysis of the deposited data

How the results depend on the processing

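In the 6 libraries of 0 and 72 h alone, 3577 transcripts were called and 1477 passed beyond 2-fold, of which 3575 and 1476 were also called in the 15-library fit. The fit of the 6 libraries tests fewer transcripts, has fewer residual degrees of freedom and takes no spread from the middle times, which were less spread. Across the other alternatives the count of calls stayed within 1.5 times of 8068, from 5474 (adjusted p under 0.01) to 8833 (DESeq2), and the count beyond 2-fold ranged from 2527 (without both libraries of A0036) to 3533. Without the identifier as a replicate block, 7658 were called, 7474 of them also called with it, 3217 passed beyond 2-fold, and ENSMODT00000009593 and Fsnt1 were the named transcripts to change side (adjusted p = 0.0718 and 0.0458). The 0 and 72 h libraries of an identifier did not deviate together (r = -0.06 to 0.07), while those of all successive times did (r of 0.16 or more), and each library of these successive times correlated best with its own identifier. Leaving out a 12 or 48 h library gave 1313 to 2250 calls from 12 to 48 h, in place of 2864, and the cause was not tested. The 12 and 48 h libraries alone, chosen after seeing the data, gave 2991. Differences in the share of the 10 most abundant transcripts and in detected transcripts kept their direction under all alternatives run. Over the 13 named transcripts and features, 10 of 217 values lost and 14 gained a call, and the rest stayed on their side of the threshold. Of the rest, 3 that were not called changed sign with a shift of more than a standard error, and 190 did not. In all, 5 values that were not called lay on the other side of 0. Phlda2_trans had log2 fold changes of -1.41 and -0.64 without the 72 h library or both libraries of A0039 and -0.06 in the 6 libraries alone, and H19_trans and Igf2_trans both had 0.04 without those of A0036.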
